A study of Homo sapiens with 2 samples.

Results

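Krüppel-like factors (KLFs) are zinc finger transcription factors that bind GC-rich and CACCC-type DNA. Here 10 KLF genes (KLF2, KLF3, KLF4, KLF5, KLF6, KLF7, KLF9, KLF10, KLF11 and KLF13) were followed in DLD1, a cell line from a human colorectal adenocarcinoma. They were taken by gene symbol from the 52402 symbols of the count tables, and were chosen by name with the CPM values and ratios of these same 2 libraries known (CPM, counts per 1000000 counts of the library). The human family has 18 KLF genes, and the other 8 are given for comparison. One library came from control cells of genotype WT. The other (KO-labelled below) came from cells of genotype HERV-R Knockout, HERV-R being a human endogenous retrovirus, and the title of the study names the HERV-R env gene and the tumorigenic properties of the cells. Both groups carry the same treatment text: transfection of a Cas9 vector and a guide RNA vector with lipofectamine, then selection of colonies with hygromycin. The sources used here do not give what the control cells received or whether either library stems from 1 clone. With 1 library per group there is no replicate check of any difference, so differences were not tested and carry no p-value.

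KLF proteins share 3 zinc fingers at the carboxyl end and differ in the part that recruits cofactors. One branch (KLF3, KLF8, KLF12) binds the corepressor CtBP, and another (KLF9, KLF10, KLF11, KLF13, KLF14, KLF16) binds the corepressor SIN3A. A further branch (KLF1, KLF2, KLF4, KLF5, KLF6, KLF7) is known mostly for activation, although its members can also repress. In the intestine KLF5 is known from proliferating crypt cells and KLF4 from differentiating surface and goblet cells.

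The control library held 21881122 counts and the KO-labelled library 16406308. ERV3-1, the gene of the HERV-R envelope, had 127 counts (5.80 CPM) in control cells and 125 (7.62 CPM) in the other library, so its RNA was not lower there. All directions given here take the label as it stands. Of 8 colon epithelium markers 6 reached a mean of 1 CPM, with EPCAM at 701 and 749.8 CPM, while KRT20 and CDX1 had 0 counts in both libraries. The colon list summed to 10882 CPM in control cells and 5543 CPM in the KO-labelled library, and it did not move together. KRT8 (4138 and 1875.5 CPM) and KRT18 (4967 and 1741 CPM) were at least 2-fold lower there, the intestinal transcription factor CDX2 (99.4 and 298 CPM) was 2.998-fold higher (2.85 to 3.16), and 3 of the 6 had a log2 ratio above 0, VIL1 (123 and 175 CPM) among them. Of 13 markers of other cell types 1 reached that mean (PDGFRB, 4.66 and 2.32 CPM), and 6 had 0 counts in both, PTPRC and COL1A2 among them. KRT20 and PTPRC each stand on 2 rows, so reads that match the copies may be missing from their values. The part of these marker differences in the KLF values was not tested.

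Promoter sequence is given for annotated start sites, and counts per gene do not show which of them was used in these cells. RefSeq windows (GRCh38.p14, 250 bases before to 50 after a start site) were matched by symbol and used for 8 of the 10 genes, in 13 windows. KLF3 had no match, and no window of KLF10 was used. The windows of KLF2 and KLF9, the genes with the lowest ratios, are printed beside those of KLF4 and KLF5, which were not lower. Each reads 5′ to 3′ along the gene's strand, and capitals mark the GC box GGGCGG, the cyclic AMP response element (CRE) core TGACG and the CArG box of serum response factor, on either strand. KLF5 has 2 windows, and the one richer in G and C is shown.
KLF2 (chr19:16324576-16324875, plus strand): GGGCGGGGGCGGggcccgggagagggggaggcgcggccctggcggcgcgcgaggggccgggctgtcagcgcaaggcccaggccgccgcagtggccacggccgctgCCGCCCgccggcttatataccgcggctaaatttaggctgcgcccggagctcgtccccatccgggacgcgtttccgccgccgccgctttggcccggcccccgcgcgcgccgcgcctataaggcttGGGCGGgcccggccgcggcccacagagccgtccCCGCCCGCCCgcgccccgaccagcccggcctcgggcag
KLF9 (chr9:70414608-70414907, minus strand): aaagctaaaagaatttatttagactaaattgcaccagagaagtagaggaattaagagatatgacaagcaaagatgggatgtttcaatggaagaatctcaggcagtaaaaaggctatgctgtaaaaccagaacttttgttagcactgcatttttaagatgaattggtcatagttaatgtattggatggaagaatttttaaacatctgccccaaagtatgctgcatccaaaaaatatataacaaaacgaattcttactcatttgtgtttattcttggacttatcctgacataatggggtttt
KLF4 (chr9:107489720-107490019, minus strand): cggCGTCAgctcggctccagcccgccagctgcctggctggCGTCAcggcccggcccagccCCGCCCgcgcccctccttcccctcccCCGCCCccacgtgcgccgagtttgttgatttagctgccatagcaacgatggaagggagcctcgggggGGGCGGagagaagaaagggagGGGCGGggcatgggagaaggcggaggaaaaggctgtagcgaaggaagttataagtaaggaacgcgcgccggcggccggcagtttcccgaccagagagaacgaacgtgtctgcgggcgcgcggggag
KLF5 (chr13:73058755-73059054, plus strand): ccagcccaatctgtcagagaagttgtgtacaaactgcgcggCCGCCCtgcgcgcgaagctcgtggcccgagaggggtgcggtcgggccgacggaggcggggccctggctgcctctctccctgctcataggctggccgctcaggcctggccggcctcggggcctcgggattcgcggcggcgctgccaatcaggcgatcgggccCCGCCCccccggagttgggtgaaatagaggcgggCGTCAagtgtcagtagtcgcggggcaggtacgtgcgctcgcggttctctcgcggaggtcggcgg

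The KLF2 window is 80.7% G and C and holds 6 GC boxes, and that of KLF4 is 69% with 4 GC boxes. The KLF9 window is 32.7% G and C and holds no GC box, so the windows of the 2 genes with the lowest ratios differ in this. The median over 35116 windows of the same length was 58.7%. Of the 13 windows, 8 held a GC box, against 44.95% of all windows, and these belong to 7 of the 8 genes. The CRE core was in 4 of the 13, 1 each of KLF4, KLF5, KLF11 and KLF13, against 24.6% of all windows. The CArG box was in 1 of the 13, a KLF7 window, against 1.29%. Also searched, on both strands, were CACCC (7 of 13 windows; 59.9% of all windows), CCAAT (6 of 13; 34.6%), the E-box CACGTG (4 of 13; 7.26%) and the TATA box TATAAA (1 of 13; 11.5%). The AP-1 site TGANTCA (7.71% of all windows) and the ETS site CCGGAAG (10.3%) were in 0 of the 13. KLF7 has 4 windows and KLF5 and KLF11 have 2 each, so windows of 1 gene are not independent. Matches of different motifs may overlap, a match is not a bound site, and no match says only that these letters are not in the window.

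**Figure D1:**
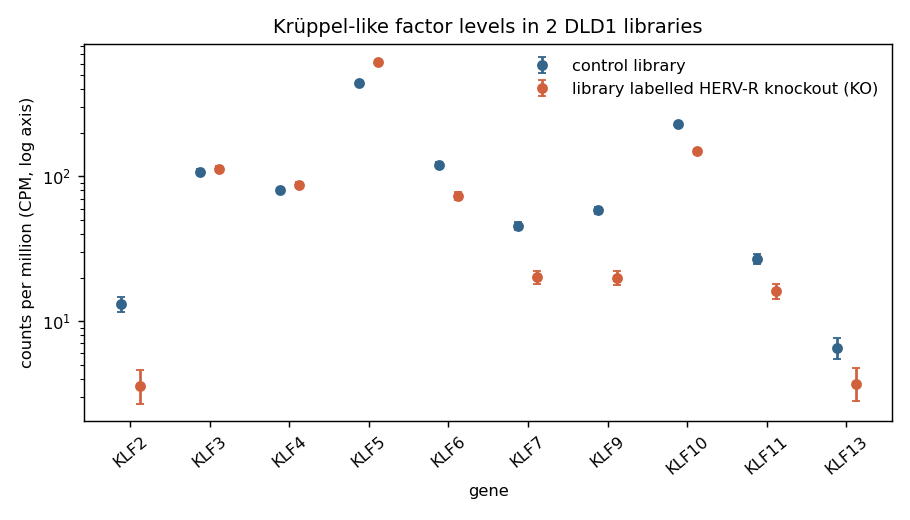
Level of each of the 10 Krüppel-like factor genes in control cells library (blue) and the library labelled HERV-R knockout (orange). The vertical axis is CPM on a log axis, the horizontal axis names the gene, and bars are exact 95% counting intervals (Poisson) of single libraries. KLF2 (13.1 against 3.54 CPM), KLF7 and KLF9 show the widest drops, and KLF5 is higher in the KO-labelled library (446 against 615 CPM).

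The members fell into 3 ranges of ratio. KLF2, KLF7 and KLF9 were lower in the KO-labelled library by at least 2-fold, KLF6, KLF10, KLF11 and KLF13 were lower by 1.54-fold to 1.77-fold, and KLF3, KLF4 and KLF5 were not lower. The size rule asked for a log2 ratio (KO-labelled over control, after 1 CPM was added to both) of 1 or more, or of -1 or less. By this rule 3 of 10 members were lower, 0 were higher and 7 lay between. Over the 12644 genes whose mean reached 1 CPM, 5.69% were lower and 6.78% higher. The median log2 ratio of the members was -0.70, against 0.12 for all genes compared. Because the members were chosen with these values known, the count and the median describe them and support nothing further. The member nearest inside the rule was KLF7 at -1.14, and the nearest outside was KLF11 at -0.72. With a rule of 1.5-fold 7 members were lower and 0 higher, where 13.2% of all genes were lower and 20.3% higher. With a rule of 3-fold 1 member, KLF2, was lower and 0 were higher, where 1.81% of all genes were lower and 0.933% higher.

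In the activator branch, KLF2 had the lowest ratio. KLF2 is known for quiescence of endothelial cells and lymphocytes and is induced through the kinase ERK5. It had 286 counts (13.1 CPM) in control cells and 58 (3.54 CPM) in the KO-labelled library. This was 3.70-fold lower, with a 95% counting interval of 2.78 to 4.99, and 1.71% of all genes compared had a log2 ratio as low or lower (-1.63). Intervals of ratios are exact (Clopper-Pearson) and cover counting error only, not the difference between cultures. With a pseudocount of 5 CPM the log2 ratio of KLF2 was -1.08, since its level is low.

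KLF7, studied mostly in neurons and fat cells, had 990 counts (45.2 CPM) in control cells and 329 (20.1 CPM) in the KO-labelled library. It was 2.26-fold lower (1.99 to 2.56), and 4.39% of genes were at or below its log2 ratio of -1.14. KLF6, a widely expressed factor that rises after tissue injury, had 2635 counts (120.4 CPM) and 1201 (73.2 CPM), 1.65-fold lower (1.54 to 1.76). KLF6 therefore lay between, at a log2 ratio of -0.71. It lies on chromosome 10, whose 479 placed genes had a median log2 ratio of -0.17, and 8.56% of them were at least 2-fold lower. That shift of the chromosome has the same sign as the KLF6 value, and its part in it was not tested. The nearest compared protein-coding genes on either side of KLF6 were PITRM1 (603 kb away, 0.31) and AKR1C2 (1203 kb away, 1.01 and 2.99 CPM, 0.99). Beyond them lay PFKP (-0.15) and AKR1C3 (-0.78). Chromosome 13, with KLF5, had a median of 0.22 (7.91% higher, 3.26% lower). Chromosome 19, with KLF2, had a median of 0.13 (7.25% higher, 7.97% lower). Chromosome 8, with KLF10, had a median of 0.11 (8.85% higher, 3.35% lower). For chromosome 9, with KLF4 and KLF9, it was 0.17 (6.76% higher, 4.83% lower). For chromosome 2, with KLF7 and KLF11, it was 0.16 (6.65% higher, 4.75% lower). Medians were 0.14 for chromosome 4, with KLF3, and 0.05 for chromosome 15, with KLF13. The part of these chromosomes in the KLF values was not tested either.

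KLF4 and KLF5, the best studied KLFs of the gut lining, were not lower. KLF4 had 1749 counts (79.9 CPM) in control cells and 1431 (87.2 CPM) in the KO-labelled library, a ratio of 1.09 (1.02 to 1.17). KLF5 had 9756 counts (446 CPM) and 10088 (615 CPM), a ratio of 1.38 (1.34 to 1.42). Only KLF5 among the 10 kept a ratio above 1 with every scaling: its log2 ratio was 0.46 with column totals and 0.30 with the median of gene ratios. For KLF4 the log2 ratio of 0.12 became -0.03 with the median of gene ratios, and it equals the median of all genes to 2 decimals under column totals.

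Among the SIN3A-binding KLFs, all 5 that reached a mean of 1 CPM had a log2 ratio below 0, and 1 of them, KLF9, passed the rule. Over all genes compared, 41.9% had a log2 ratio below 0. KLF9 is induced by glucocorticoid and thyroid hormones. It had 1272 counts (58.1 CPM) in control cells and 326 (19.9 CPM) in the KO-labelled library, 2.93-fold lower (2.59 to 3.31), and 2.07% of genes were at or below its log2 ratio of -1.502. KLF10, an early gene of TGF-beta signalling, had 5023 counts (229.6 CPM) and 2444 (149 CPM), 1.54-fold lower (1.47 to 1.62).

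KLF11, the close relative of KLF10 and also TGF-beta inducible, had 590 counts (27.0 CPM) in control cells and 263 (16.0 CPM) in the KO-labelled library. It was 1.68-fold lower (1.45 to 1.95). The number of KLF10 counts per KLF11 count was 8.51 in control cells and 9.29 in the KO-labelled library, a change of 1.09-fold whose interval (0.935 to 1.28) includes 1. KLF13, known for control of the chemokine gene CCL5 in T cells, had 142 counts (6.49 CPM) and 60 (3.66 CPM), 1.77-fold lower (1.30 to 2.44). Its symbol stands on 3 rows, of which 1 carries counts, so reads that match the copies may be missing from its value. KLF16, the fifth gene of this branch above 1 CPM, had 63.7 and 54.4 CPM.

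KLF3, a repressor that works through CtBP, had 2363 counts (108 CPM) in control cells and 1852 (113 CPM) in the KO-labelled library, a ratio of 1.05 (0.983 to 1.11). Its log2 ratio was 0.06 with column totals and -0.06 with the trimmed mean of M values (TMM). KLF12, which shares that branch, had 225 counts (10.3 CPM) and 86 (5.24 CPM), 1.96-fold lower (1.52 to 2.55), and stood just outside the rule at -0.85. The number of KLF3 counts per KLF12 count was 10.5 in control cells and 21.5 in the KO-labelled library, a 2.05-fold change (1.58 to 2.68). KLF3-AS1, the antisense neighbour of KLF3, had 3 counts in each library. The 11 rows of KLF pseudogenes had 0 counts in both.

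**Figure D2:**
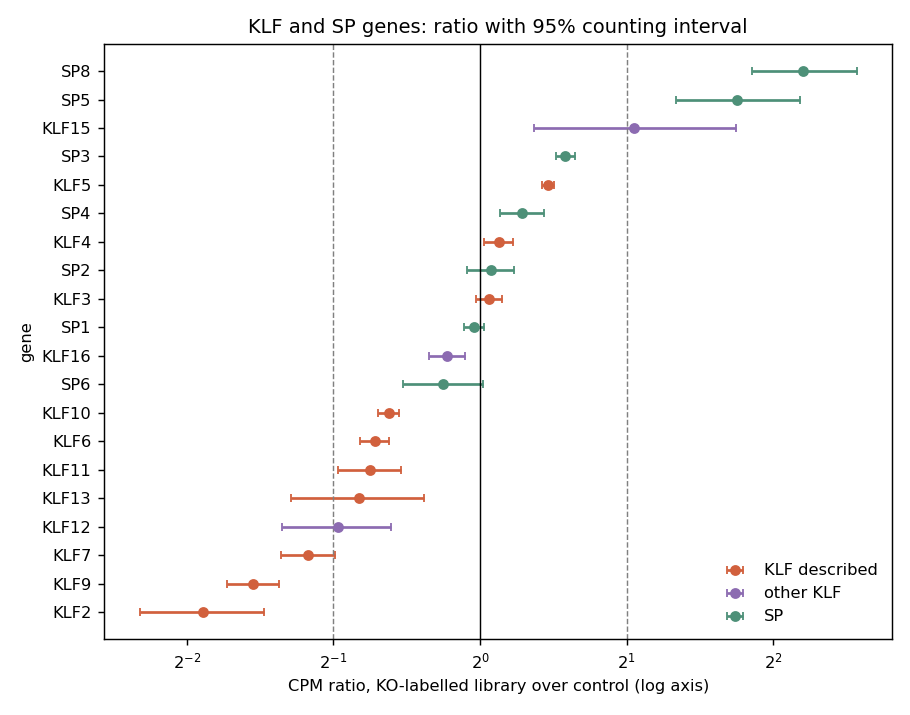
Ratio of CPM, KO-labelled library over control, on a log axis for the KLF and SP genes that reached a mean of 1 CPM, 1 gene per line. Points are single ratios without a pseudocount, bars are 95% counting intervals, the solid line marks equal levels and dashed lines mark 2-fold. KLF2, KLF9 and KLF7 are the lowest 3, and SP8 and SP5 are the highest.

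Changes in the number of counts per count of another gene do not depend on library scaling or on gene length. KLF5 counts per KLF2 count went from 34.1 in control cells to 174 in the KO-labelled library, a 5.10-fold change (3.83 to 6.89). Against KLF9 the change was 4.03-fold (3.56 to 4.59), against KLF7 3.11-fold (2.73 to 3.55) and against KLF6 2.27-fold (2.11 to 2.44). KLF5 counts per KLF4 count went from 5.58 to 7.05, a change of 1.26-fold (1.17 to 1.36). The change against KLF4 was the smallest of these 5.

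Levels of different genes were compared per kilobase of exon in the GENCODE v29 basic annotation. KLF5 was the most abundant member in both libraries, with 119 CPM per kb in control cells and 164 in the KO-labelled library. KLF10 came next with 57.3 and 37.2 CPM per kb, then KLF4 with 27.3 and 29.7. KLF6 (20.2 CPM per kb) stood above KLF3 (18.0) in control cells and below it in the KO-labelled library (12.2 against 18.8).

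KLF9 had 11.2 and 3.84 CPM per kb. In the control KLF2 (6.48) and KLF11 (6.28) had counting intervals that overlapped, and KLF7 followed with 5.24 CPM per kb. In the KO-labelled library KLF11 (3.73) lay within the counting interval of KLF9, and KLF2 (1.75) had moved below KLF7 (2.32), with intervals that overlapped. KLF13 was the lowest in both, with 0.943 and 0.532 CPM per kb. KLF5 made up 40.3% of the length-scaled KLF signal of all 18 genes in control cells and 55.7% in the KO-labelled library. The summed CPM of the 10 members was nearly level, 1134 in control cells and 1100.3 in the KO-labelled library (ratio 0.971, 0.952 to 0.989). Without KLF5 the sum was 688 and 485 CPM (ratio 0.706, 0.687 to 0.725).

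**Figure D3:**
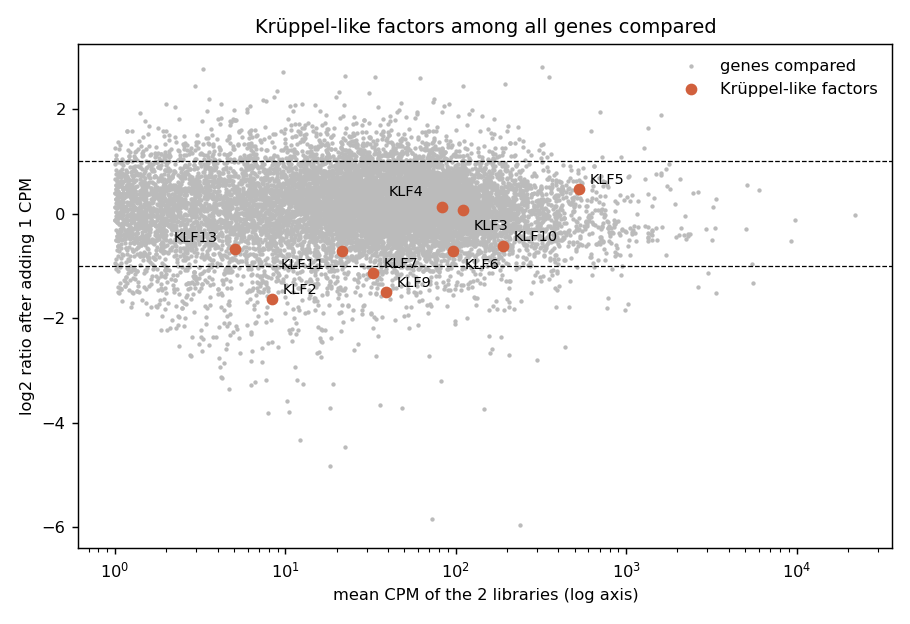
Each grey point is 1 of the 12644 genes compared, with its mean CPM over the 2 libraries on a log axis and its log2 ratio after 1 CPM was added, KO-labelled library over control. Orange points are the 10 Krüppel-like factors, and dashed lines mark log2 ratios of 1 and -1. KLF2, KLF9 and KLF7 lie below the lower line, and KLF5 has the highest mean of the 10.

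Of the other 8 KLF genes 3 reached a mean of 1 CPM, and 0 of these passed the rule (KLF12, KLF15, KLF16). KLF15, a metabolic regulator of muscle and liver, had 31 counts (1.42 CPM) in control cells and 48 (2.93 CPM) in the KO-labelled library, a ratio of 2.07 (1.29 to 3.36), with a log2 ratio of 0.70 once 1 CPM was added. KLF8 had 8 and 3 counts, KLF1 had 1 count in each library, and KLF14 had 1 and 0. KLF17 and KLF18 had 0 counts in both, which allows up to 0.137 CPM in control cells and 0.183 CPM in the KO-labelled library (3 counts).

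SP genes, the sister family that binds GC boxes, included 2 higher and 0 lower genes among 7 compared, with a median log2 ratio of 0.28. The shares over all genes compared were 6.78% higher and 5.69% lower. SP8, a developmental regulator, had 86 counts (3.93 CPM) in control cells and 297 (18.1 CPM) in the KO-labelled library, 4.61-fold higher (3.61 to 5.93). SP5, a WNT target, had 67 counts (3.06 CPM) and 169 (10.3 CPM), 3.36-fold higher (2.52 to 4.53), and it lay between (0.92) with a pseudocount of 5 CPM. The broadly acting SP1 had 184 and 179 CPM, and SP3 had 162 and 243 CPM, a ratio of 1.495 (1.43 to 1.56). SP2 had 32.1 and 33.7 CPM, SP4 had 35.0 and 42.6 CPM, SP6 had 13.5 and 11.3 CPM, and SP7 and SP9 had 0 counts.

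Of 9 cofactors that KLFs recruit, 7 had a log2 ratio above 0 with column totals and 6 with TMM, where 58.1% and 50.3% of all genes did. By the size rule 2 were higher, 0 lower and 7 between, with a median of 0.35, where 6.78% of all genes were higher and 5.69% lower. The histone deacetylase HDAC1 had 69.7 CPM in control cells and 177 CPM in the KO-labelled library, 2.54-fold higher (2.39 to 2.71). The acetyltransferase EP300 had 55.6 and 116 CPM, 2.08-fold higher (1.93 to 2.24), and fell short of the rule with TMM (0.92), the upper quartile (0.90), the median of gene ratios (0.89) and a pseudocount of 5 CPM (0.99). SIN3A, the partner of KLF9, KLF10, KLF11 and KLF13, had 109.6 and 139.7 CPM (log2 ratio 0.35). CTBP2, a partner of KLF3, had 394 and 289 CPM (log2 ratio -0.45).

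Of 15 genes compared that act upstream of KLFs or in their turnover, 1 was lower, 0 higher and 14 between, with a median of -0.02. The shares over all genes compared were 5.69% lower and 6.78% higher. The TGF-beta mediator SMAD3, which acts upstream of KLF10 and KLF11, had 111 CPM in control cells and 47.7 CPM in the KO-labelled library, 2.32-fold lower (2.14 to 2.52). MEF2D, a factor that drives KLF2 and KLF4, had 56.7 and 27.98 CPM and a log2 ratio of -0.99, and it passed the rule with TMM (-1.11). The other MEF2 genes listed went the other way: MEF2A had 43.5 and 54.8 CPM (0.33) and MEF2C had 8.68 and 13.4 CPM (0.57). The thyroid hormone receptor gene THRA had 61.3 and 32.2 CPM, with -0.91 under column totals and -1.02 under TMM. With TMM, 3 of the 15 were lower, where 879 of all 12649 genes compared under that scaling were. The glucocorticoid receptor gene NR3C1, upstream of KLF9, had 0 and 1 counts. The ubiquitin ligase genes FBXW7 and WWP1, which act on KLF5 protein, had log2 ratios of 0.22 and -0.02.

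KLF2, KLF4, KLF6 and KLF10 are themselves known as early response genes, and 13 of 14 other immediate early genes listed were compared. The other, IER3, stands on 6 rows with 0 counts in both libraries, so reads that match the copies may be missing. Of the 13 compared, 3 were lower, 0 higher and 10 between, with a median of -0.20. The shares over all genes compared were 5.69% lower and 6.78% higher. The AP-1 subunit FOSB had 248 counts (11.3 CPM) in control cells and 31 (1.89 CPM) in the KO-labelled library, a log2 ratio of -2.09 (the plain ratio is 4.12-fold to 9.02-fold lower by counting error). EGR3 had 94 and 11 counts, 6.41-fold lower (3.42 to 13.3), and lay between with a pseudocount of 5 CPM (-0.71). The mRNA decay factor ZFP36 had 65.8 and 29.1 CPM, 2.26-fold lower (2.04 to 2.51). EGR1, with 192 and 127 CPM, had a log2 ratio of -0.60, close to that of KLF10 (-0.62). JUNB had 204 and 110.7 CPM (-0.88, and -1.02 with the upper quartile), while IER2 had 129 and 175 CPM (0.44). With column totals 8 of the 13 were below 0, JUN (-0.08) among them, and 5 were above 0. Besides IER2, those above 0 were MYC (154 and 260 CPM, 0.75), DUSP1 (0.44), FOS (0.29) and ATF3 (0.01).

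Of 29 genes reported as KLF targets, 21 were compared, and 14 of these had a log2 ratio below 0 and 7 above. Over all genes compared, 41.9% were below 0. By the size rule 3 of the 21 targets were lower, 0 higher and 18 between, with a median of -0.29. The shares over all genes compared were 5.69% lower and 6.78% higher. MAOA had 31 and 56 counts, a plain ratio of 2.41 (1.53 to 3.87). It lay between at a log2 ratio of 0.87, and was higher with a pseudocount of 0.1 CPM (1.21). Urokinase (PLAU), reported as activated by KLF6, had 220 counts (10.1 CPM) in control cells and 12 (0.731 CPM) in the KO-labelled library, 13.7-fold lower (7.71 to 27.0). TGFB1, also reported downstream of KLF6, had 202 and 59.6 CPM, 3.40-fold lower (3.17 to 3.64). KRT19, a keratin gene reported under KLF4, had 664 and 273 CPM, 2.44-fold lower (2.36 to 2.52).

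Targets reported for KLF4 and KLF5 did not share 1 direction. CDKN1A, a cell cycle inhibitor activated by KLF4, had 53.8 CPM in control cells and 43.9 in the KO-labelled library (log2 ratio -0.29). Among genes tied to KLF5, CCND1 had 969.7 and 652 CPM (-0.57), whereas BIRC5 had 81.5 and 131 CPM (0.68) and CCNB1 had 137 and 199 CPM (0.54). CDK1 (-0.68), PDGFA (-0.82) and FGFBP1 (-0.58), also on the target list, were below 0. They are among the 14 of 21 targets below 0, against 7 above. ODC1, reported as repressed by KLF4, had 223 and 368 CPM (0.72). The galectin gene LGALS3, repressed by KLF3 in other cells, had 320.2 and 324 CPM (0.02). The endothelial KLF2 targets THBD and S1PR1 and the KLF13 target CCL5 had 0 counts in both libraries, and NOS3 had 6 and 3 counts. CCL5 stands on 2 rows, so reads that match the copies may be missing from its value.

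**Figure D4:**
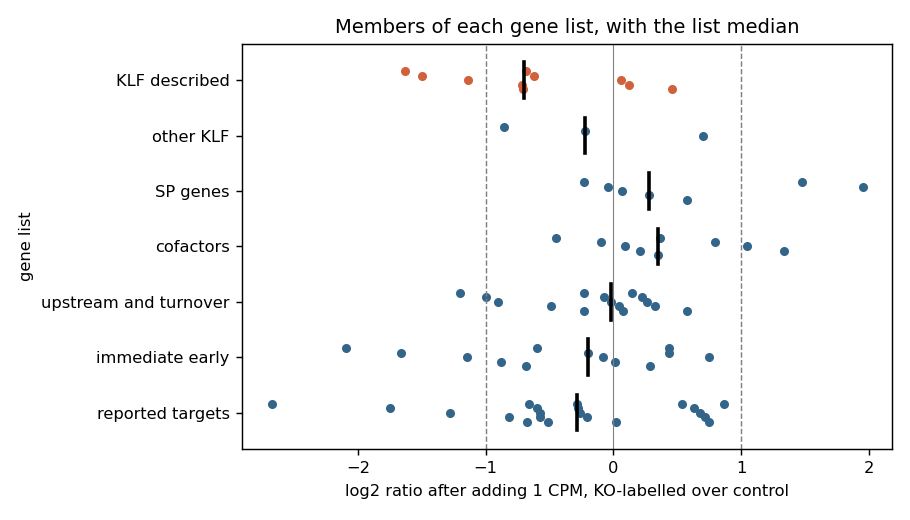
Log2 ratios after 1 CPM was added, KO-labelled library over control, for every gene of 7 lists that reached a mean of 1 CPM. Each point is 1 gene, black bars are list medians, dashed lines mark log2 ratios of 1 and -1, and points are spread vertically only for legibility. The median of the 10 Krüppel-like factors (-0.70) lies below those of the SP genes (0.28) and of the cofactors (0.35).

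The 10 genes lie on 8 chromosomes. By GENCODE v29 (GRCh38), KLF2 lies on chromosome 19 (16324817 to 16327874, plus strand), KLF7 on chromosome 2 (207074137 to 207167267, minus strand) and KLF9 on chromosome 9 (70384597 to 70414624, minus strand). For each member the nearest compared protein-coding gene on either side was taken, 20 in all, of which 0 were higher and 1 was lower, where 6.78% and 5.69% of all genes were. Some of these lie far from the member. For KLF2, AP1M1 (78.9 kb away) and EPS15L1 (26.6 kb) had log2 ratios of 0.22 and 0.65. For KLF9, SMC5 (29.7 kb) and TMEM2 (1269 kb) had 0.22 and -0.42. For KLF7, FASTKD2 (278 kb) and CREB1 (356 kb) had 0.40 and 0.47.

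The lower neighbour was FAM114A1, 166 kb from KLF3 (31.7 against 5.30 CPM, log2 ratio -2.37). The compared gene beyond it, KLHL5 (343 kb), stood at -1.42, while KLF3 itself was at 0.06. On chromosome 13 the nearest compared genes on either side of KLF5 were PIBF1 (38.5 kb away, 0.16) and KLF12 (609 kb away, -0.85). KLF4 and KLF9 share chromosome 9, with log2 ratios of 0.12 and -1.502. KLF7 and KLF11 share chromosome 2, with -1.14 and -0.72.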

How the data were processed

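RNA was measured by sequencing in 2 DLD1 libraries, 1 control and 1 labelled HERV-R knockout, grouped by the genotype label. Per the labels' protocols, Trizol served for RNA extraction and the library kit kept strand. The deposited values are raw counts per gene symbol. TopHat and the build GRCh38 are named, per the submitters' processing notes; no version, counting program, annotation, strand setting or filter is given in the sources used here. Thus reads shared by relatives, copies or overlapping genes may be split or lost. Each table holds 58173 rows. Rows of 1 symbol were summed to 52402 symbols and divided by the column total, which gives CPM (per 1000000 counts). The 12644 genes whose mean reached 1 CPM were compared by the log2 ratio after 1 CPM was added, with a size rule of 2-fold, which understates changes of low genes. Ratios of single genes are plain CPM ratios with exact 95% intervals. PCR duplicates are not independent molecules, so intervals and upper limits cover counting error only. The members and the 9 gene lists were chosen with earlier results of these data known. Named are all KLF and SP genes with a count and, from each other list, the genes past the rule (at most 6) or its 2 most abundant, and other genes were chosen after their values were seen. Exon lengths come from GENCODE v29. Promoters and neighbours come from RefSeq tables of GRCh38.p14, which placed 97.3% of the genes compared. KLF promoter windows on chromosome 8, where KLF10 lies, were left out of the motif search. The procedure was tested on simulated counts that held counting error only, so this says nothing of differences between cultures. Alternatives were a pseudocount of 0.1 or 5 CPM, a minimum mean of 5 CPM or none, a rule of 1.5-fold or 3-fold, and scaling by TMM, the upper quartile (edgeR 4.0.16, in R 4.3.3) or the median of gene ratios. Added after the data had been seen were column totals without the 10 most abundant symbols and symbols on a single row only. Python 3.11.15 with scipy 1.17.1 was used.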

Additional observations from a re-analysis of the deposited data

How the results depend on the processing

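KLF2, KLF7 and KLF9 stayed at least 2-fold lower under every alternative of pseudocount, filter and scaling, with log2 ratios of -1.86 to -1.08, -1.29 to -1.004 and -1.66 to -1.34. With a rule of 3-fold 1 member was lower, and with 1.5-fold 7 were. The other scalings shift log2 ratios of plain CPM by -0.12 (TMM), -0.14 (upper quartile) or -0.16 (median of gene ratios), and less for low genes once 1 CPM is added, as for KLF2 with TMM (-1.63 to -1.74). The last gave a member median of -0.84, where the median of all genes was -0.03. KLF3 ranged from -0.09 to 0.06 and KLF4 from -0.03 to 0.13, so neither has a settled direction; KLF5 stayed above 0 (0.30 to 0.46), and KLF6, KLF10, KLF11 and KLF13 stayed below 0. Over all genes, 857 were higher and 719 lower. These numbers became 601 and 879 with TMM, 574 and 917 with the upper quartile, and 544 and 945 with the median of gene ratios. They were 426 and 371 with a pseudocount of 5 CPM, 2567 and 1674 at 1.5-fold and 118 and 229 at 3-fold. Depth limits KLF2 and KLF13, with 58 and 60 counts in the KO-labelled library. No paired analysis was possible because each group has 1 library.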
